A study of Chlorella variabilis with 6 samples.

Results

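Carriers of sulfate, ammonium and compatible solutes were examined in the unicellular green microalga Chlorella variabilis NC64A, each through 1 locus: CHLNCDRAFT_133646, named as a proline/betaine transporter, CHLNCDRAFT_133898, named as a putative sulfate transporter of the SLC26A11 family, and CHLNCDRAFT_56592, named as an ammonium transporter. They are 3 of the 9625 genes counted in every library, were matched by locus name, and were selected with their change between LOG OX1 and WT in the study's tables in view. Their values in this contrast are therefore given as a description, with no test. The RNA was from 3 LOG OX1 and 3 WT cultures, grown in modified Bold's basal medium in cycles of light and dark and collected 1 h before the dark phase at 14 days post inoculation (dpi). The LOG OX1 line carries CvarLOG1, the LONELY GUY gene of this alga, which encodes a cytokinin-activating enzyme, under the constitutive 35S promoter of the vector pMDC32. It was introduced by electroporation with hygromycin selection. WT is the parental NC64A strain, and none of the libraries is from a line carrying the empty vector. LOG OX1 is 1 transformed line, so the overexpression and the site of insertion cannot be told apart. Neither can the genotype and the growth state of the cultures, which were collected at the same age. At that age the paper reports slower growth and a lower cell number in LOG OX1 than in WT. It also reports more LOG OX1 cells in S phase and fewer in G2/M at 1 h before the dark phase. The replicates are described as biological, and p-values cover the spread between these cultures.

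Sulfate, ammonium and osmotically active solutes cross the membranes of an algal cell through dedicated carriers. Sulfate that enters is passed to the chloroplast, where it is reduced and built into cysteine by cysteine synthase. Ammonium enters through ammonium transporters and is built into glutamine by glutamine synthetase. In green algae the transcripts of sulfate and ammonium carriers are known to respond to the supply of sulfur and of nitrogen. Proline/betaine transporters are best known from bacteria, in which they bring in compatible solutes when the medium becomes concentrated. The names come from the study's protein matches. The match behind CHLNCDRAFT_133646 was a protein of the bacterium Candidatus Phycorickettsia, that behind CHLNCDRAFT_133898 was a protein listed under the coral Acropora tenuis, and that behind CHLNCDRAFT_56592 was a protein of the brown alga Ectocarpus siliculosus. What the algal proteins carry was not measured.

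The libraries held between 10180885 and 12444029 counts in LOG OX1 and between 10743741 and 12546100 counts in WT. Of the 9625 genes, 9101 passed the filter on low counts, among them all 3 transporter genes. CvarLOG1 itself, CHLNCDRAFT_28106, had 398, 504 and 364 counts in LOG OX1 and 218, 238 and 295 counts in WT. After scaling each library to the mean effective library size, the unit called normalized count here, it averaged 437 ± 27.4 in LOG OX1 and 240 ± 22.8 in WT (SD, n = 3 each), which is 0.86 higher on the log2 scale (SE 0.086, Benjamini-Hochberg adjusted p = 1.42e-07, quasi-likelihood F test of edgeR). All LOG OX1 libraries were above all WT libraries, as the labels require. The transgene holds the coding sequence of the gene, so counts of the native and the introduced copy cannot be told apart. A gene was called where its adjusted p did not exceed 0.05 and its level differed by at least 1.5-fold.

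CHLNCDRAFT_133646, the proline/betaine transporter, had few counts in either genotype. There were 73, 115 and 90 counts in LOG OX1 replicates 1, 2 and 3, against 11, 9 and 10 counts in WT replicates 1, 2 and 3. The normalized counts were 80.2, 105.9 and 101.3 in LOG OX1 (mean 95.8 ± 13.7 SD, n = 3) and 11.5, 8.57 and 9.03 in WT (mean 9.69 ± 1.56 SD, n = 3). The LOG OX1 libraries were all far above the WT libraries, with replicate 1 the lowest of its group, and the groups did not overlap. The closest pair of libraries across the groups differed by 6.99-fold. The log2 fold change of LOG OX1 over WT was 3.30 (standard error 0.23), a 9.87-fold higher level in LOG OX1, and 28 of the 9101 genes had a larger increase. DESeq2 gave this gene a larger standard error, 0.34. Summed over replicates, 278 counts in LOG OX1 (95% exact Poisson interval 246 to 313) stood against 30 counts in WT (20.2 to 42.8). The scaled ratio of these sums was 10.01 (6.86 to 15.1), an interval that covers counting error only. In bulk RNA, a higher level per cell and a larger share of cells expressing the gene cannot be told apart, here and for the genes below.

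CHLNCDRAFT_133898, the sulfate transporter, had a difference of nearly the same size with many more counts behind it. It had 1363, 1852 and 1542 counts in LOG OX1, against 196, 192 and 195 counts in WT. The normalized counts were 1498, 1706 and 1735 in LOG OX1 (mean 1646 ± 129 SD, n = 3), and 204, 183 and 176 in WT (mean 188 ± 14.8 SD, n = 3). The groups did not overlap, and replicate 1 was again the lowest LOG OX1 library. The log2 fold change was 3.14 (standard error 0.072), an 8.79-fold higher level in LOG OX1. Single LOG OX1 libraries exceeded single WT libraries by 7.33-fold to 9.85-fold. The ratio of the scaled sums, 4757 counts in LOG OX1 and 583 in WT, was 8.82 (95% interval 8.09 to 9.62, counting error only).

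CHLNCDRAFT_56592, the ammonium transporter, was the one with the lower level in LOG OX1. There were 940, 1188 and 1032 counts in LOG OX1 and 3638, 3965 and 4032 counts in WT. Its normalized counts were 1033, 1094 and 1161 in LOG OX1 (mean 1096 ± 64.0 SD, n = 3) and 3795, 3775 and 3642 in WT (mean 3738 ± 83.1 SD, n = 3). The lowest WT library was 3.14-fold above the highest LOG OX1 library, so the groups did not overlap here either. The log2 fold change was -1.77 (standard error 0.047), a 3.41-fold lower level in LOG OX1, and 192 genes had a larger decrease.

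**Figure D1:**
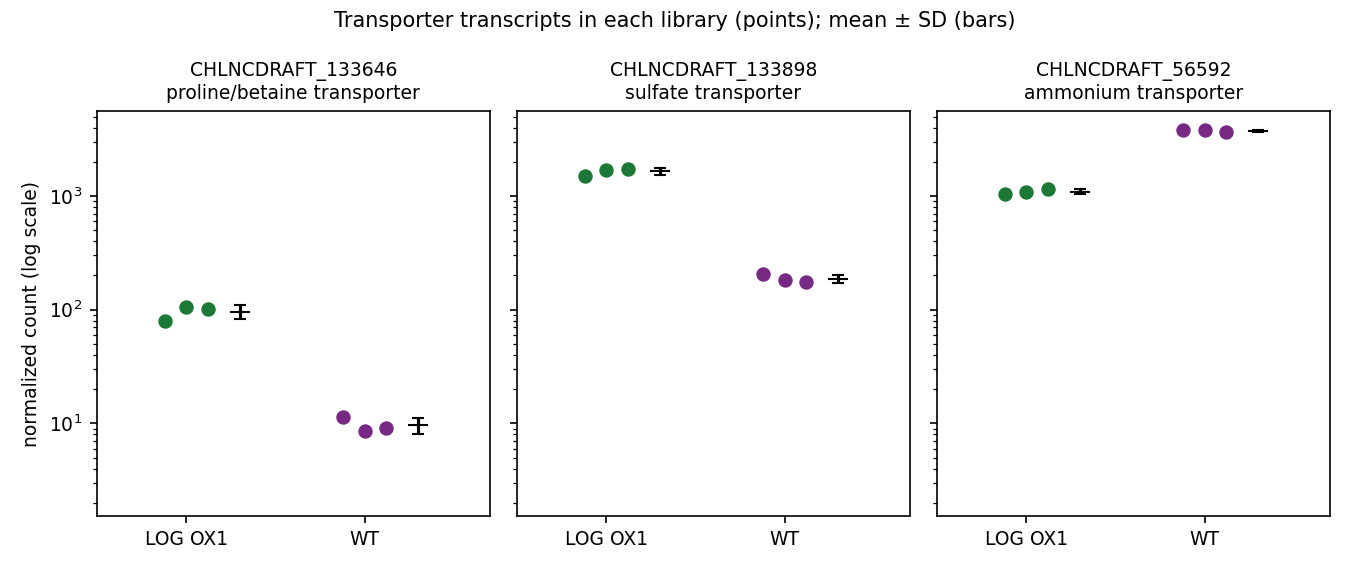
Normalized counts of the 3 transporter genes in each library, on a log axis, with LOG OX1 (green) left of WT (purple); points are replicates 1 to 3 from left to right and the black marks give the mean ± SD. The proline/betaine transporter averaged 95.8 in LOG OX1 and 9.69 in WT, the sulfate transporter 1646 in LOG OX1 and 188 in WT, and the ammonium transporter 1096 in LOG OX1 and 3738 in WT, with no overlap between the groups in any panel.

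By these calls, 2 of the 3 genes were up and 1 was down. Of all genes tested, 14.0% were called up and 14.6% down, 28.6% in all, and the groups did not overlap in either direction in 74.2%. Since this contrast chose the 3 genes, nothing is read from their count. The spread among replicates was unlike among them. The coefficient of variation was 14.3% in LOG OX1 and 16.1% in WT for CHLNCDRAFT_133646, 7.85% in LOG OX1 and 7.89% in WT for CHLNCDRAFT_133898, and 5.84% in LOG OX1 and 2.22% in WT for CHLNCDRAFT_56592. CHLNCDRAFT_133646, with the fewest counts of the 3, had the largest coefficient in both genotypes. The fit draws the biological coefficient of variation of each gene towards the trend for its abundance, so a likeness to the trend is partly built in. It was 0.085 for CHLNCDRAFT_133646, where the trend for genes of that abundance was 0.084. For CHLNCDRAFT_133898 it was 0.049 with a trend of 0.040, and for CHLNCDRAFT_56592 0.042 with a trend of 0.045.

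Across the 6 libraries, the log2 CPM of the proline/betaine and sulfate transporters moved together (Pearson's r = 0.999), and the ammonium transporter ran opposite to both (r = -0.989 with the first and -0.994 with the second). The libraries form 2 groups, and the coefficients mostly restate the difference between these. For comparison, r was at least 0.99 with CHLNCDRAFT_133646 for 414 genes (4.55% of those tested), with CHLNCDRAFT_133898 for 590 genes (6.48%) and with CHLNCDRAFT_56592 for 850 genes (9.34%). The genes closest to CHLNCDRAFT_133646 were CHLNCDRAFT_57914 (r = 0.9999), CHLNCDRAFT_133036 (0.9997) and CHLNCDRAFT_144568 (0.9994), with log2 fold changes of 0.70, 1.43 and 1.94. Those closest to CHLNCDRAFT_133898 were CHLNCDRAFT_57507 (r = 0.9999), CHLNCDRAFT_21830 (0.9998) and CHLNCDRAFT_142571 (0.9997), with log2 fold changes of 1.12, 1.00 and 2.23. Only the third has a name in the sources used here, as a protein of the ATP-binding cassette superfamily. Closest to CHLNCDRAFT_56592 were CHLNCDRAFT_9818 (r = 0.9999), CHLNCDRAFT_135624 (0.9999) and CHLNCDRAFT_138627 (0.9998), with log2 fold changes of -2.58, -1.03 and -1.48. The likeness is in shape over the libraries and not in size.

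The study placed 13 genes under a Transporters term, the 3 loci above among them. It chose these genes for their change in the same libraries, so their directions are no independent evidence. The term held 7 genes with a higher level in LOG OX1 (median log2 fold change 1.74, range 0.72 to 3.30) and 6 with a lower level (median -1.47, range -2.08 to -1.03), where the median over all genes tested was 0.00. The proline/betaine and sulfate transporters had the largest increases of the term. The ammonium transporter had the second largest decrease, behind CHLNCDRAFT_21860, an uncharacterized protein with 11, 10 and 8 counts in LOG OX1 and 35, 47 and 52 counts in WT (log2 fold change -2.08). CHLNCDRAFT_142571, of the ATP-binding cassette superfamily, averaged 1627 ± 77.9 normalized counts in LOG OX1 and 348 ± 12.4 in WT (SD, n = 3 each). CHLNCDRAFT_34403, a triosephosphate/phosphate translocator, which exchanges sugar phosphates for phosphate across a plastid membrane, was at 0.77 on the log2 fold change scale, and the unnamed CHLNCDRAFT_27595 at 0.72. With lower levels in LOG OX1 were CHLNCDRAFT_143568, a proton-pumping pyrophosphatase of the vacuolar type (-1.47), CHLNCDRAFT_52158, a multidrug resistance-associated protein (-1.47), and CHLNCDRAFT_58775, an uncharacterized protein (-1.04). The other 3 genes are relatives by name of the sulfate and ammonium transporters.

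**Figure D2:**
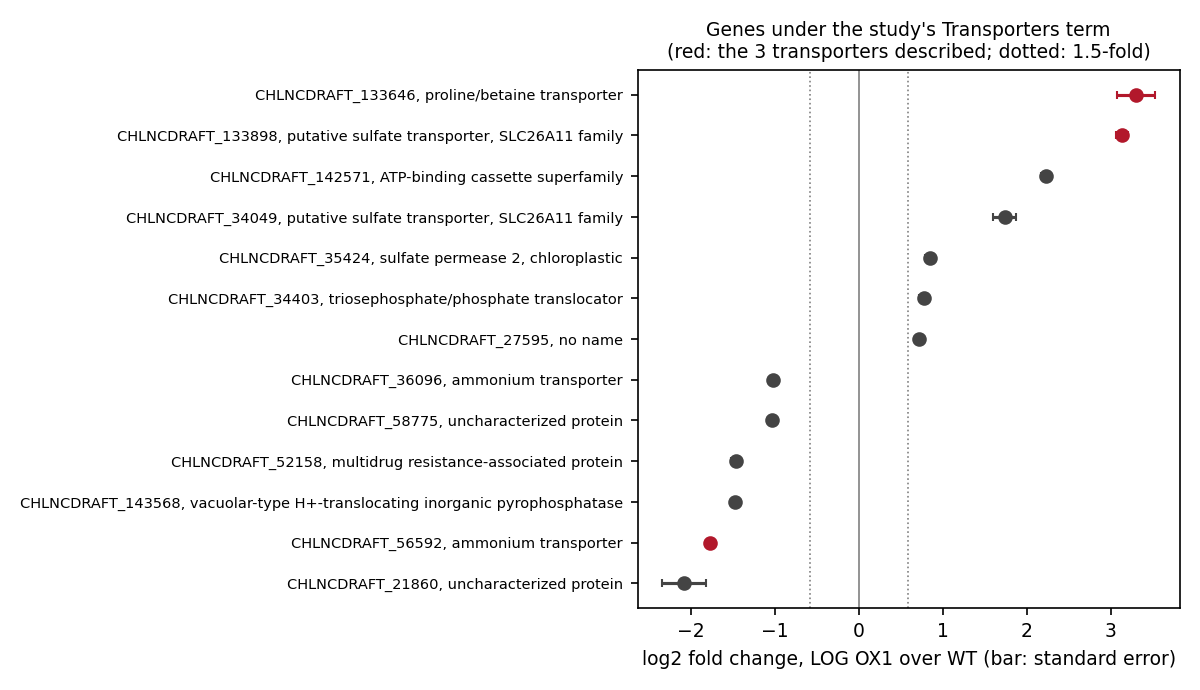
Log2 fold change of LOG OX1 over WT with its standard error for the 13 genes of the Transporters term, ordered from the largest increase at the top; red marks the 3 transporter genes described and dotted lines mark a 1.5-fold change. The increases reach 3.30 at the proline/betaine transporter and 3.14 at the sulfate transporter, and the ammonium transporter lies at -1.77 among decreases between -2.08 and -1.03.

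A second gene in the study's lists of changed genes, CHLNCDRAFT_34049, has the same name as the sulfate transporter. The names of carriers were taken from those lists, so one that did not change could not appear. The pairs here and below are therefore not known to be the full set of such carriers. It had 191, 263 and 188 counts in LOG OX1 and 63, 85 and 59 counts in WT, a log2 fold change of 1.74 (standard error 0.14). The direction was shared, but the genes moved by unequal amounts. CHLNCDRAFT_133898 made up 87.7%, 87.6% and 89.1% of the counts of the pair in LOG OX1 replicates 1, 2 and 3, and 75.7%, 69.3% and 76.8% in WT replicates 1, 2 and 3. The mean share was 88.1% ± 0.867 in LOG OX1 and 73.9% ± 4.03 in WT (SD, n = 3 each), with no overlap between the groups. Summed over the pair, the normalized count was 1868 ± 138 in LOG OX1 and 254 ± 21.9 in WT (SD, n = 3 each). How alike the sequences of the pair are was not examined, so a sharing of reads between them is uncertain.

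The ammonium transporter also has a second gene of its name, CHLNCDRAFT_36096, which had 2356, 2908 and 2404 counts in LOG OX1 and 5466, 5767 and 5633 counts in WT, a log2 fold change of -1.03 (standard error 0.047). CHLNCDRAFT_56592 made up 28.5%, 29.0% and 30.03% of the counts of this pair in LOG OX1 and 40.0%, 40.7% and 41.7% in WT. Its share was thus lower in every LOG OX1 library (mean 29.2% ± 0.774) than in any WT library (mean 40.8% ± 0.880; SD, n = 3 each). The summed normalized count of the pair was 3754 ± 123 in LOG OX1 and 9165 ± 393 in WT (SD, n = 3 each). In both pairs the gene selected here was the one with the larger change, which a selection with that change in view favours. The second gene of each pair comes from the study's lists of changed genes, so that it changed was fixed by that choice. Each pair is split over different scaffolds, as inferred from the order of the annotation.

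**Figure D3:**
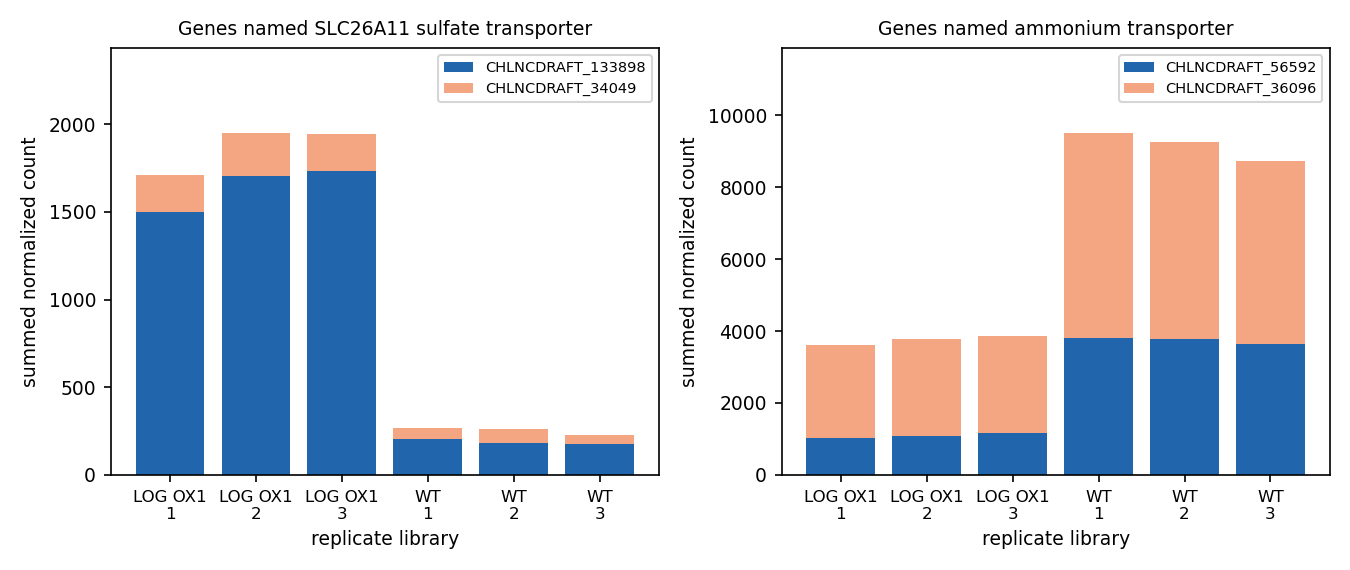
Normalized counts in each library, stacked for the genes named SLC26A11 sulfate transporter (left) and those named ammonium transporter (right) in the study's lists of changed genes. The LOG OX1 libraries are left of the WT libraries. The sulfate pair sums to 1868 on average in LOG OX1 and 254 in WT, mostly through CHLNCDRAFT_133898, and the ammonium pair to 3754 in LOG OX1 and 9165 in WT, with the share of CHLNCDRAFT_56592 at 29.2% in LOG OX1 and 40.8% in WT.

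Downstream of sulfate uptake, the study's sulfur term held 4 genes, again chosen on these libraries, of which 3 were called up and 1 down (14.0% and 14.6% of all genes tested). CHLNCDRAFT_35424, sulfate permease 2 of the chloroplast, which in Chlamydomonas is a membrane component of the carrier bringing sulfate into that organelle, had 846, 971 and 880 counts in LOG OX1 and 491, 544 and 590 counts in WT (log2 fold change 0.85). The term held a pair of genes named cysteine synthase, the enzyme that fixes sulfide into cysteine, with opposite directions. CHLNCDRAFT_57054 averaged 1750 ± 70.5 normalized counts in LOG OX1 and 787 ± 12.9 in WT, and CHLNCDRAFT_145435 averaged 5307 ± 129 in LOG OX1 and 10180 ± 600 in WT (SD, n = 3 each). Their summed normalized count was 7057 ± 58.3 in LOG OX1 and 10967 ± 613 in WT (SD, n = 3 each). The share of CHLNCDRAFT_57054 in that sum was 24.8% in LOG OX1 and 7.19% in WT. The sulfur genes did not therefore all share the direction of the sulfate transporter. The fourth gene, CHLNCDRAFT_35907, is uncharacterized and had a log2 fold change of 1.28.

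On the nitrogen side, the names in the study's tables held 3 further genes, of which 2 were called up and 1 down (14.0% and 14.6% of all genes tested). They come from the study's lists of changed genes in these libraries, so that all of them were called was fixed by that choice. CHLNCDRAFT_34412, a nitrite transporter of the NAR1 family, averaged 697 ± 49.6 normalized counts in LOG OX1 and 401 ± 16.7 in WT (SD, n = 3 each). CHLNCDRAFT_143431, glutamine synthetase, which takes up ammonium into glutamine, had 2853, 3435 and 2700 counts in LOG OX1 and 1347, 1576 and 1594 counts in WT (log2 fold change 1.10). CHLNCDRAFT_52469, glutamate dehydrogenase, which joins ammonium to or releases it from carbon skeletons, had 115, 180 and 135 counts in LOG OX1 and 285, 375 and 339 counts in WT (log2 fold change -1.11). Glutamine synthetase was thus higher in the libraries in which the ammonium transporter genes named in those lists were lower. The arginine and proline term, the one nearest to the proline/betaine transporter by name, held 3 genes from the same lists, and all of them belong to polyamine synthesis. Agmatine deiminase CHLNCDRAFT_133066 (log2 fold change -1.03) and N-carbamoylputrescine amidase CHLNCDRAFT_18182 (-0.73), which in plants act one after the other in making putrescine, were lower in LOG OX1, and spermidine/spermine synthase CHLNCDRAFT_26108 (0.73) was higher.

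The genes next to each transporter were chosen by place alone, as the 2 on each side in the order of the annotation, and were tested. The transporters themselves were selected with their change in view, so a neighbour that shares reads with its transporter is no independent test. Of these 12 genes, 4 were called up and 2 down, 6 in all, where 28.6% of all genes tested were called. The largest change among the 12 was beside the sulfate transporter. CHLNCDRAFT_133897, the gene directly before it, had 376, 518 and 410 counts in LOG OX1, against 41, 78 and 42 counts in WT, and rose by 3.12 on the log2 scale (SE 0.15, Benjamini-Hochberg adjusted p = 9.40e-12, quasi-likelihood F test of edgeR). WT replicate 2 was high for its group, and the groups did not overlap. Its share of the counts of CHLNCDRAFT_133897 and CHLNCDRAFT_133898 together was 21.6%, 21.9% and 21.0% in LOG OX1 and 17.3%, 28.9% and 17.7% in WT. The proportion of these genes therefore overlapped between the genotypes while their level differed by over 8-fold.

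CHLNCDRAFT_133896, the next gene out, rose too, with 93, 125 and 102 counts in LOG OX1 and 25, 25 and 35 counts in WT (log2 fold change 2.02, SE 0.17, Benjamini-Hochberg adjusted p = 1.42e-08 in edgeR). On the other side of the sulfate transporter, CHLNCDRAFT_23080 (log2 fold change 0.03) and CHLNCDRAFT_133902 (-0.16) were not called, the second for its small size (edgeR, Benjamini-Hochberg adjusted p = 0.79 for the first and 0.017 for the second). The adjusted p of CHLNCDRAFT_133902 varied with the processing. It was 0.066 in the Wald test of DESeq2 and 0.0077 in edgeR with library-size scaling. CHLNCDRAFT_133896 and CHLNCDRAFT_133897 have no name in the sources used here. The libraries were stranded, but the strand setting of the counting is not given, so counts of neighbouring genes whose transcripts run into each other are uncertain.

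Around the ammonium transporter, the flanking genes split. CHLNCDRAFT_18415, named as an amine oxidase and directly after it, fell, with 315, 365 and 331 counts in LOG OX1 and 933, 1028 and 1020 counts in WT (log2 fold change -1.45, edgeR adjusted p = 9.33e-13 with Benjamini-Hochberg adjustment). CHLNCDRAFT_33654, named as an alpha-mannosidase, a trimming enzyme of glycoprotein sugar chains, fell to 940 ± 48.0 normalized counts in LOG OX1, against 2547 ± 40.6 in WT (SD, n = 3 each). Its log2 fold change was -1.44 (edgeR adjusted p = 5.48e-14 with Benjamini-Hochberg adjustment). CHLNCDRAFT_49649 lies between CHLNCDRAFT_33654 and the ammonium transporter and differed by 0.33 on the log2 scale, and CHLNCDRAFT_56593 by -0.17. Both were past the adjusted p but short of the 1.5-fold threshold (edgeR, Benjamini-Hochberg adjusted p = 2.67e-05 and 0.011). For CHLNCDRAFT_56593 this depended on the processing. Its adjusted p was 0.34 in edgeR with upper-quartile scaling and 0.038 in the Wald test of DESeq2.

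The neighbours of the proline/betaine transporter changed less. CHLNCDRAFT_133649 (log2 fold change 0.71, edgeR adjusted p = 2.05e-09 with Benjamini-Hochberg adjustment) and CHLNCDRAFT_133653 (0.74, adjusted p = 5.01e-10 from the same edgeR test) rose, each by under 2-fold. On the other side, CHLNCDRAFT_18697 (-0.24) and CHLNCDRAFT_29389 (-0.05) were not called. In the order of the annotation, the proline/betaine and ammonium transporter genes lay on the same inferred scaffold with 81 genes between them, and the sulfate transporter shared an inferred scaffold with chloroplast sulfate permease 2, with 24 genes between them.

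**Figure D4:**
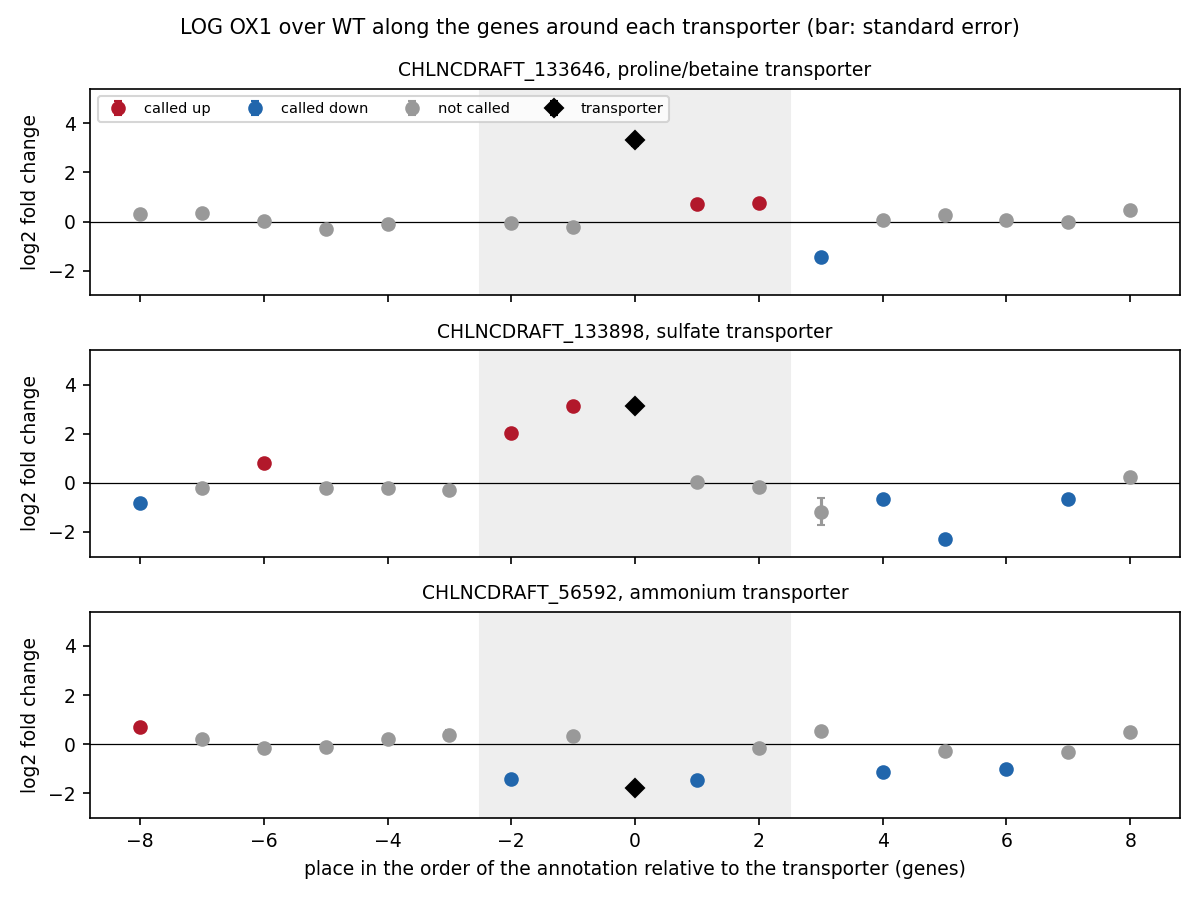
Log2 fold change of LOG OX1 over WT, with its standard error, for the transporter (black diamond) and the tested genes up to 8 places before and after it in the annotation; red genes were called up, blue genes down and grey genes not, and the shaded band holds the 2 nearest on each side. Next to the sulfate transporter (3.14), the genes 1 and 2 places before it lie at 3.12 and 2.02, where the genes 1 and 2 places after it lie at 0.03 and -0.16.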

How the data were processed

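Paired-end RNA sequencing libraries of 3 LOG OX1 and 3 WT cultures were compared, grouped by their labels. Before deposit, the authors trimmed reads (Trim Galore), mapped them to the genome of strain NC64A (HISAT2, defaults) and obtained raw counts for each gene (HTSeq). Tool versions, the strand setting and the annotation release are not given in the sources used here, so no coordinates are reported. All 9625 identifiers matched RefSeq assembly v 1.0, used only for the order of genes, with a new scaffold inferred wherever start positions decrease. A count of 0 would allow up to 3 counts, and depth is given with the results.

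Genes were filtered with filterByExpr (minimum count 10), scaled by TMM and tested with edgeR 4.0.16 (limma 3.58.1, R 4.3.3) by the quasi-likelihood test with condition as the only term and Benjamini-Hochberg adjustment. Log2 fold changes used a prior count of 0.125, and log2 CPM a prior count of 1. On simulated data of 9094 genes for LOG OX1 against WT, the test recovered 200 of 200 changed genes and called 0 unchanged genes. The simulation gave all genes the same dispersion and changed only genes above a minimum mean count, by at least 2-fold. Recovery of smaller changes, of genes with few counts or under unequal dispersions was not examined. DESeq2 1.42.0, other scaling factors, no filter, other fold thresholds, a replicate block and leaving out each library were the alternatives. Figures were drawn with matplotlib 3.10.9 in Python 3.11.15.

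The transporters and gene lists were chosen with earlier results of these data known. The genes named are the 3 transporters, the genes of the study's terms for transporters, sulfur, and arginine and proline, its genes named for nitrogen uptake and assimilation, the 2 neighbours on each side, and the 3 genes with the highest r to each transporter. Sequence relatives and lists drawn from gene descriptions were planned, but the reference used here gives neither proteins nor descriptions, and the study's lists took their place. The columns of fold changes and p-values in the study's tables were not used.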

Additional observations from a re-analysis of the deposited data

How the results depend on the processing

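Each transporter kept its direction under DESeq2, RLE, upper-quartile or library-size scaling, no filter, the replicate block and without any 1 library. Leaving out a library gave 3.22 to 3.43 for CHLNCDRAFT_133646, 3.09 to 3.20 for CHLNCDRAFT_133898 and -1.81 to -1.73 for CHLNCDRAFT_56592. Upper-quartile scaling moved the ammonium transporter to -1.66, the median of all genes by 0.11 and the share of calls that were up to 61%, against 49% with TMM. Genes called numbered 1193 (580 up, 613 down) at a fold change of at least 2 and 6536 (3249 up, 3287 down) with no fold threshold. The main edgeR fit used here called 2602 (1274 up, 1328 down), and 2615 to 2666 were called without 1 library. These are not the counts of the paper, which used DESeq and gives fewer changed genes. CvarLOG1, at 0.86, was not called at a fold change of at least 2, and neither were CHLNCDRAFT_133649 and CHLNCDRAFT_133653. The called neighbours numbered 4 at that threshold and 9 with none, and 15 of 48 when 8 genes on each side were taken, a window chosen after seeing the data. Among neighbours that were not called, CHLNCDRAFT_29389 changed sign to 0.058 under upper-quartile scaling and ranged from -0.124 to 0.047 without 1 library, and CHLNCDRAFT_23080 ranged from -0.015 to 0.059. The cause was not tested. With the replicate block, 2603 genes were called, and the transporters were at 3.30, 3.13 and -1.77. Same-numbered replicates did not deviate together (r = -0.036, -0.0065 and -0.11), and 0 of 6 libraries correlated best with their own number. No pairing by number was therefore seen, though so few libraries could not show that there was none. The sequence relatives and description lists were not run. CHLNCDRAFT_133646 had only 9 to 11 counts in each WT library, which limits the precision of its fold change.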

Other observations

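In a window of 8 genes on each side, chosen after seeing the data, the surroundings of the sulfate transporter held the most calls: 7 of 15 tested genes (46.7%), 3 up and 4 down. The ammonium transporter had 5 of 16 (31.2%), 1 up and 4 down, and the proline/betaine transporter 3 of 15 (20%), 2 up and 1 down. Over all 3 windows this was 15 of 46 tested genes (32.6%), where 28.6% of all genes were called, and no difference between the windows was tested. Directions within a window were mixed around each transporter.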
